A study of Mus musculus with 2 samples.

Results

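MHC class II molecules display peptides to CD4+ T cells, and their genes were followed here in 2 single-cell RNA libraries of mouse bone marrow. The 10 genes chosen by name, of 32285 in the count tables, were the classical chains H2-Aa, H2-Ab1 and H2-Eb1, the invariant chain Cd74, the peptide-loading genes H2-DMa, H2-DMb1, H2-DMb2, H2-Oa and H2-Ob, and the transactivator Ciita. All 10 were found by symbol. The cells came from wild-type C57BL/6 mice (WT) or from mice homozygous for a disrupted Irf4 gene (Irf4-/-), and were sorted as natural killer progenitors that carried CD122 and were negative for NK1.1, Ncr1, c-kit, Sca-1 and lineage markers. There was 1 library per genotype. The sources used here do not give the age and number of the mice, nor which part of Irf4 is deleted. Irf4 encodes a transcription factor of lymphocytes.

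In a B cell, an alpha and a beta chain of class II pair in the endoplasmic reticulum with the invariant chain, which fills the peptide groove until it is degraded in endosomes. H2-DM then exchanges the remaining invariant chain fragment for antigenic peptide, and H2-DO, made mainly by B cells and some dendritic cells, holds H2-DM in check. Ciita does not bind DNA itself but docks on factors that occupy the X and Y boxes of class II promoters, and class II is known to come on during B cell development in the bone marrow. Most mouse T cells do not make the classical chains.

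Most of the sorted cells carried T cell transcripts, and some carried those of B cells. Barcodes were therefore classed by raw counts of unique molecular identifiers (UMIs, each counting 1 captured transcript end). Progenitor B cells had at least 2 UMIs of Cd79a and at least 2 UMIs of Vpreb1, Vpreb2, Igll1, Dntt and Rag1 together, mature B cells had Cd79a and at least 2 UMIs of Ighd and Fcer2a, immature B cells were the other Cd79a-positive cells with Ighm, and T cells had Cd3d. Pairs of values in the text give the library labelled Irf4-/- first and the library labelled WT second. The progenitor class held 317 and 54 cells, the immature class 384 and 465, the mature class 333 and 388, and the T cell class 6687 and 11030, or 84.1% and 89.2% of the 7955 and 12367 kept barcodes. Another 127 and 192 barcodes carried both Cd79a and Cd3d and were set apart. In CPM, the UMIs of a gene for every 1000000 UMIs of its class, pan-B markers summed to between 6617 and 9347 in the B cell classes and to 15.5 and 18.2 in T cells, where all 6 were still above 0. All 4 natural killer markers were at 0 in progenitor B cells of the library labelled WT, and their sum was at most 3.98 CPM in any B cell class.

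The libraries held 82599767 and 95031071 UMIs. Median depth in the B cell classes was 4283 and 2725.5 UMIs per cell for progenitors, 3857.5 and 2974 for immature and 4432 and 3024.5 for mature cells. The library labelled Irf4-/- had no less Irf4 than the other. Irf4 was at 134 and 75.9 CPM in progenitor, 62.9 and 40.9 in immature and 52.5 and 35.7 in mature B cells, and at 2.67 and 1.07 in T cells. Directions are therefore between libraries as labelled. The files shared 27 barcode sequences, of which 3 and 1 fell in B cell classes. Without them the median log2 ratio between libraries over the 10 genes was 1.81 in progenitor, 0.82 in immature and -0.11 in mature B cells. Markers of dendritic cells, which also make class II, summed to 107 and 46.7 CPM in progenitor, 180 and 92.1 in immature and 130 and 70.6 in mature B cells. The number of the 10 markers at 0 was 5 and 9 in progenitor, 8 and 6 in immature and 6 and 7 in mature cells. The progenitor sums held 2163046 and 342741 UMIs. Itgax, Xcr1 and Clec9a were at 0 in all 6 of these sums, and the part of the other markers in the results was not tested. Monocyte and macrophage markers summed to 459 and 309, 314 and 362, and 215 and 306 in the same classes, with Fcgr1 at 0 in each. Of these 9 markers, 3 and 7 were at 0 in progenitor, 6 and 6 in immature and 4 and 6 in mature cells, and their part was not tested. Intervals are exact and cover counting error only, and no test or replicate error exists with 1 library per genotype. Transcript ends were counted without regard to length, so levels are compared between cells and not between genes.

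On GRCm38 with GENCODE annotation, 8 of the genes lie within chromosome 17. Along it stand H2-Oa (ENSMUSG00000024334, 34092340 to 34095234), H2-DMa (ENSMUSG00000037649, 34119541 to 34139101), H2-DMb2 (ENSMUSG00000037548, 34143307 to 34151555) and H2-DMb1 (ENSMUSG00000079547, 34153072 to 34160230). They are followed by H2-Ob (ENSMUSG00000041538, 34238903 to 34254414), H2-Ab1 (ENSMUSG00000073421, 34257689 to 34269419), H2-Aa (ENSMUSG00000036594, 34282744 to 34287823, on the minus strand) and H2-Eb1 (ENSMUSG00000060586, 34305867 to 34316674). Ciita (ENSMUSG00000022504) is on chromosome 16, 10480059 to 10528418, and Cd74 (ENSMUSG00000024610) on chromosome 18.

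The promoters of 7 of the 10 genes were in the RefSeq table of GRCm38.p6, which gives 300 bases around each start site. H2-Ab1, Cd74 and Ciita were not matched. All 7 held the letters GATTGG on either strand, those of the Y box, against 16.1% of 32851 promoters in the table. In H2-DMa the match lay 199 bases before the start site, farther than the 44 to 91 bases of the windows below. The letters AACNNATGATG, written from the X boxes seen in these promoters, stood in 4 of the 7 (H2-DMb1, H2-DMb2, H2-Eb1 and H2-Ob) and in 0.137% of all promoters. Both motifs together stood in those 4 genes and in 11 promoters of the table in all, 0.0335%. The motifs were chosen after the letters had been seen, so these shares are a description and no match shows binding. The windows of 66 bases below show the shared element in genes for a classical beta chain and alpha chain, H2-DM and H2-DO, each 5′ to 3′ on the strand of its gene, with the Y box letters and, where present, the X box letters in capitals.

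H2-Eb1, chr17:34305757-34305822, plus strand: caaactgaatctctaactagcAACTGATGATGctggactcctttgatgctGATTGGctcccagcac
H2-Aa, chr17:34287857-34287922, minus strand: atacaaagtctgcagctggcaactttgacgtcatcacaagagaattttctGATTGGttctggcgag
H2-DMb2, chr17:34145108-34145173, plus strand: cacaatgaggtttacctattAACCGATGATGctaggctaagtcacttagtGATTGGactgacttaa
H2-Oa, chr17:34092285-34092350, plus strand: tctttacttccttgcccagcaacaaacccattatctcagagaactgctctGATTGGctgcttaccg
H2-Ob, chr17:34238797-34238862, plus strand: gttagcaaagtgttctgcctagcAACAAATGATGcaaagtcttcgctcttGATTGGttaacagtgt

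Between the X box and Y box letters stood 18 bases in H2-Eb1, 19 in H2-DMb2 and 16 in H2-Ob. The windows of H2-Aa and H2-Oa held the Y box letters without these X box letters. X boxes with other letters were not searched for. The Y box lay 49 bases before the RefSeq start site in H2-Aa, 60 in H2-Eb1, 91 in H2-DMb2, 44 in H2-Oa and 58 in H2-Ob.

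The classical chains were low in progenitor B cells and high in mature B cells of both libraries, and the libraries differed in the steps between. H2-Aa encodes the alpha chain of I-A. Its level in the library labelled Irf4-/- was 257 CPM in progenitor (interval 236 to 279), 1436 in immature (1381 to 1492) and 2262 in mature B cells (2195 to 2331). The library labelled WT had 58.4 (35.6 to 90.1), 549.7 (516 to 586) and 2791 (2704 to 2881). Immature cells thus stood at 63.5% (60.4% to 66.7%) and 19.7% (18.3% to 21.1%) of the mature level of their library. H2-Ab1, the partner beta chain, was at 346, 1530 and 2105 CPM along the same 3 classes in the library labelled Irf4-/-, and at 99.2, 592 and 2292 in the library labelled WT. H2-Eb1, the beta chain of I-E, was at 191, 1138 and 1844 against 29.2, 442 and 2218. C57BL/6 mice lack the I-E alpha chain, so the beta chain is transcribed there without its usual partner.

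Cd74 encodes the invariant chain that fills the groove of new class II dimers. Its level was 1017 CPM (interval 975 to 1060) in progenitor, 7811 (7683 to 7941) in immature and 8628 (8496 to 8762) in mature B cells of the library labelled Irf4-/-. The library labelled WT had 187 (144 to 238), 5238 (5132 to 5346) and 9942 (9776 to 10110). Cd74 of immature cells was therefore nearer to the mature level than the classical chains were, in both libraries.

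The genes for the peptide exchanger H2-DM were likewise lowest in progenitor and highest in mature cells. H2-DMa, its alpha chain, was at 57.3, 315 and 358 CPM from progenitor to mature cells in the library labelled Irf4-/-, and at 17.5, 159 and 384 in the library labelled WT. H2-DMb2, which encodes a beta chain of it, was at 31.0, 228 and 299 against 8.75, 146 and 314, the first WT value resting on 3 UMIs. H2-DMb1, the other beta chain gene, was at 16.6, 31.7 and 42.9 against 2.92, 21.6 and 42.9, and its WT progenitor value was 1 UMI. H2-Oa encodes the alpha chain of H2-DO, the inhibitor of H2-DM, and was at 17.6, 108 and 176 against 14.6, 83.0 and 181, the first WT value resting on 5 UMIs. H2-Ob, the beta chain, was at 80.4 and 55.4 in progenitors, 132 and 123 in immature and 262 and 350 in mature cells.

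Ciita, the transactivator that most class II transcription depends on, was at 21.3, 79.0 and 134 CPM in progenitor, immature and mature B cells of the library labelled Irf4-/-. The library labelled WT had 0 Ciita UMIs in progenitors, where 3 counts would be 8.75 CPM, and levels of 30.1 and 130 in immature and mature cells. Its intervals in immature cells, 66.5 to 93.1 and 22.6 to 39.4, did not overlap, while those in mature cells, 118 to 152 and 112 to 151, did.

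**Figure D1:**
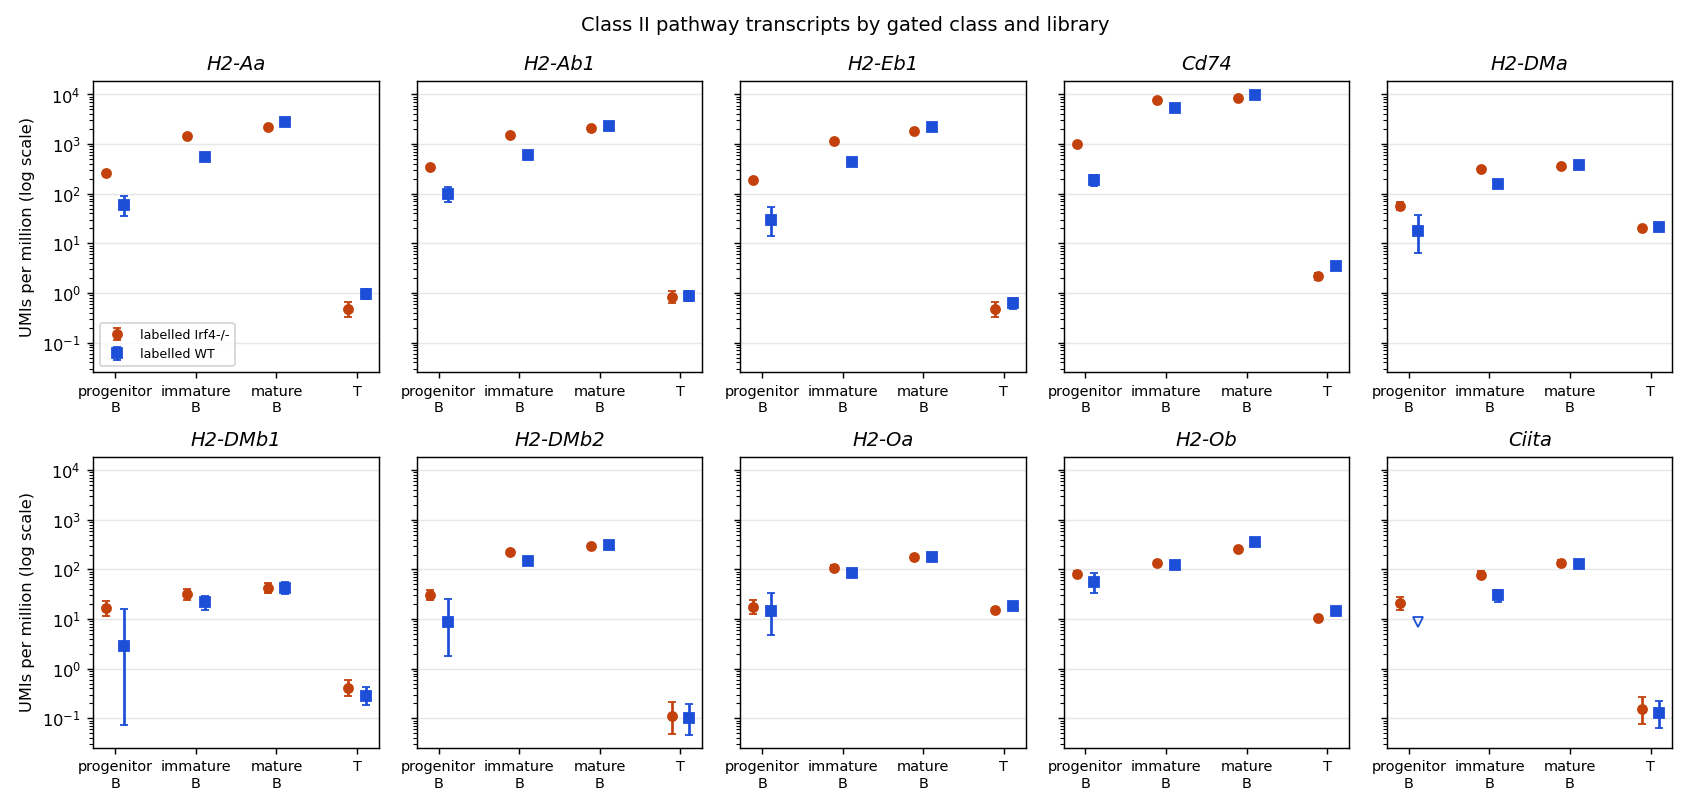
CPM of each of the 10 genes (vertical log axis) in progenitor, immature, mature B and T cells of each library, with exact Poisson 95% intervals and an open triangle at the level of 3 counts where no UMI was seen. The B cell levels climb from left to right in both libraries, and in immature cells H2-Aa stands at 1436 in the library labelled Irf4-/- and at 549.7 in the library labelled WT.

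From progenitor to mature B cells all 10 genes were at least 2-fold higher in each library, where 8.35% (library labelled Irf4-/-) and 14.4% (library labelled WT) of all genes with at least 20 UMIs in the pair of sums were. The median log2 ratio over the 10 genes was 2.87 in the library labelled Irf4-/- and 4.49 in the library labelled WT, against -0.07 and -0.0030 over all genes tested. Among the 10, H2-Oa had the highest ratio in the library labelled Irf4-/-, with a log2 of 3.32 (interval 2.84 to 3.85), and H2-DMb1 the lowest, 1.37 (0.78 to 1.98). H2-Eb1 was highest in the library labelled WT, with 6.25 (5.37 to 7.31), and H2-Ob lowest, with 2.66. Ciita of the library labelled WT was 14.9-fold higher in mature cells, taking 3 counts for its 0 UMIs in progenitors. The lower limit of its log2 ratio, on the 0 UMIs themselves, was 3.58. With the progenitor and mature genes gated at 1 UMI in place of 2, the WT median was 3.43.

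The first step, from progenitor to immature cells, was at least 2-fold for 8 of the 10 genes in the library labelled Irf4-/- (7.25% of all genes) and for 10 of 10 in the library labelled WT (13.9%). The 8 left out H2-DMb1, at a log2 ratio of 0.93, and H2-Ob, at 0.71. Medians were 2.47 and 3.04. Cd74 had a log2 ratio of 2.94 (interval 2.88 to 3.01) over this step in the library labelled Irf4-/- and 4.81 (4.46 to 5.19) in the library labelled WT. Over the second step, from immature to mature cells, no gene of the 10 was 2-fold higher in the library labelled Irf4-/- (2.49% of all genes), with a median log2 ratio of 0.56, whereas 8 of 10 were in the library labelled WT (2.64%), with a median of 1.39. H2-Aa had a log2 ratio of 0.66 (interval 0.58 to 0.73) over that step in the first library and 2.34 (2.24 to 2.45) in the second. Ciita had 0.76 (0.46 to 1.07) and 2.11 (1.66 to 2.58). Cd74 had the smallest ratios over the second step, 0.14 (0.11 to 0.18) and 0.92 (0.89 to 0.96), and with the looser gate at 1 UMI its value in the library labelled Irf4-/- was -0.0067. All 10 genes were above 0 over it in both libraries, up to 0.99 for H2-Ob (0.77 to 1.22) in the library labelled Irf4-/-, where it had 1.505 (1.27 to 1.74) in the other.

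Set against each other class by class, the libraries differed in progenitor and immature B cells and little in mature cells. In immature cells, H2-Aa was 2.61-fold higher in the library labelled Irf4-/- (log2 ratio 1.39, interval 1.28 to 1.49), H2-Ab1 2.59-fold (1.37, 1.27 to 1.47), H2-Eb1 2.57-fold (1.36, 1.24 to 1.48) and Ciita 2.62-fold (1.39, 0.93 to 1.87). These were 4 of 10 genes at least 2-fold higher, where 2.88% of all genes were. H2-DMa was just under that size, at a log2 ratio of 0.98 (0.77 to 1.20). Cd74 stood at 0.58 (0.54 to 0.61) and H2-DMb2 at 0.64 (0.41 to 0.87). The smallest ratios belonged to H2-DO, with H2-Oa at 0.39 (0.07 to 0.71) and H2-Ob at 0.10 (-0.18 to 0.37), the latter covering 0. The interval of H2-DMb1, 0.55 (-0.06 to 1.19), did so too. The median over the 10 genes was 0.81, against -0.03 over all genes tested, and all 10 values were above 0.

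In progenitor B cells 8 of 10 genes were at least 2-fold higher in the library labelled Irf4-/- (9.62% of all genes), with a median log2 ratio of 1.81 against 0.03 over all genes. H2-Eb1 was at 2.71 (interval 1.82 to 3.78), Cd74 at 2.45 (2.09 to 2.83), H2-Aa at 2.14 (1.498 to 2.86) and H2-Ab1 at 1.80 (1.31 to 2.34). The WT counts behind them were small, 10 UMIs of H2-Eb1 and 20 of H2-Aa. Ciita, with 46 UMIs against 0, was 2.43-fold higher when 3 counts were taken for the 0, and counted among the 8 on that floor. The lower limit of its log2 ratio, on the 0 UMIs themselves, was 0.92, which is under 2-fold. H2-DMb1 had 36 UMIs against 1, a log2 ratio of 2.51 whose interval ran from -0.06 to 7.85. The lowest ratios were those of H2-Oa at 0.27 (-1.08 to 1.97) and H2-Ob at 0.54 (-0.15 to 1.30), with intervals that covered 0.

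The progenitor value depended on which cells stood in the class. In the library labelled WT, 8 dividing cells, with at least 2 UMIs of Mki67 and Top2a, held 62.0% of the class's UMIs, and in the library labelled Irf4-/- 62 such cells held 51.4%. H2-Aa was at 110 and 42.3 CPM in dividing progenitors and at 413 and 84.5 in the others, so it was higher in the library labelled Irf4-/- within either kind. These WT values rest on 9 and 11 UMIs. Only 9.26% of WT progenitors had any H2-Aa UMI before thinning, against 52.1% in the library labelled Irf4-/-. At 2000 UMIs per cell it was found in 111 of 311 progenitors (35.7%) and in 2 of 51 (3.92%). Among progenitors with at least 2 UMIs of the surrogate light chain genes Vpreb1, Vpreb2 and Igll1, which were 263 and 13 cells, H2-Aa was at 214 and 42.7, a log2 ratio of 2.33 (1.43 to 3.40). Among the other 54 and 41 cells it was at 647 and 92.1, a log2 ratio of 2.81 (1.89 to 3.90). The WT value rests on 10 UMIs in each of these groups. The median over the 10 genes was 1.41 with each cell weighted equally, 1.39 without the deepest 10% of each class and 0.71 when cells were brought to 2000 UMIs before they were gated. Neutrophil markers summed to 908 and 2.92 CPM in the progenitor class. Without the 2 barcodes that had at least 5 such UMIs, both of the library labelled Irf4-/-, the median was still 1.81.

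Mature B cells showed no gene of the 10 at a 2-fold difference in either direction, where 4.12% of all genes were higher and 1.78% lower in the library labelled Irf4-/-. The median log2 ratio was -0.11, against 0.03 over all genes. The ratio of H2-Ob was -0.42 (interval -0.60 to -0.23), of H2-Aa -0.30 (-0.37 to -0.24), of H2-Eb1 -0.27 (-0.34 to -0.20), of Cd74 -0.20 (-0.24 to -0.17) and of H2-Ab1 -0.12 (-0.19 to -0.05), all slightly lower in the library labelled Irf4-/-. With the looser gate at 1 UMI the ratio of H2-Ab1 was 0.13. Intervals of the other 5 genes covered 0, among them Ciita at 0.04 (-0.24 to 0.33). Stage markers differed in the same class. The 8 mature B cell markers, which include the gate genes Ighd and Fcer2a, summed to 2146 and 3080 CPM with a median log2 ratio of -0.55, and the 6 immature B cell markers to 7720 and 6495 with a median of 0.45. In the immature class these medians were -0.30 and 0.09, and the part of these markers in the class II ratios was not tested.

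**Figure D2:**
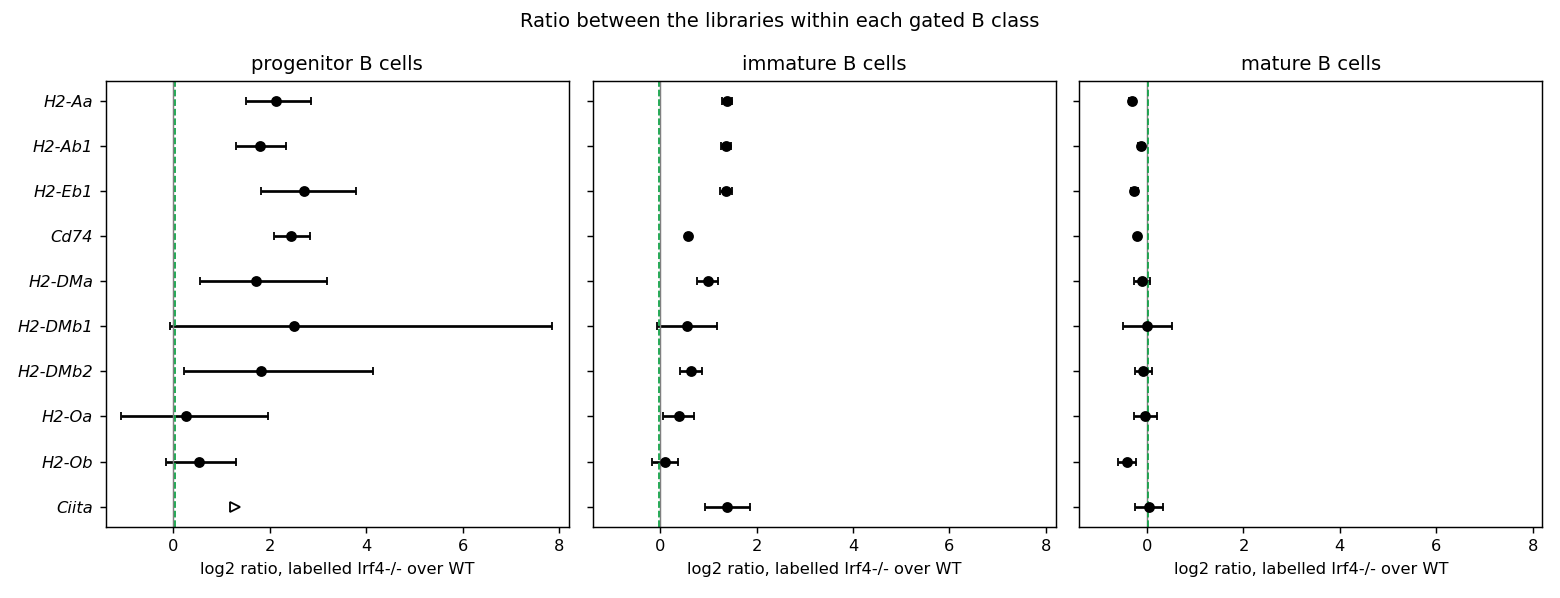
Log2 ratio of the CPM of each gene between libraries, Irf4-/- over WT (horizontal axis), in progenitor, immature and mature B cells, with exact 95% intervals for counting error. The open triangle is the log2 ratio of Ciita in progenitors, 1.28, with the floor count taken for its 0 WT UMIs. Its lower limit, on the 0 UMIs themselves, is 0.92. The green dashed line is the median of all genes tested. Points of the classical chains lie right of 0 in progenitor and immature cells and left of it in mature cells.

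The immature class spans cells of different stages, and the class II difference was larger in its less mature part. Of 384 and 465 immature cells, 229 and 300 had no UMI of Ighd or Fcer2a, which mark maturing B cells. In these H2-Aa was at 1367 and 365 CPM, a log2 ratio of 1.90 (interval 1.74 to 2.07). In the 155 and 165 cells with 1 such UMI it was at 1518 and 847, a log2 ratio of 0.84 (0.70 to 0.99). H2-Ab1 (1.76 and 0.91), H2-Eb1 (1.90 and 0.81), Cd74 (0.74 and 0.35) and H2-DMa (1.30 and 0.56) likewise had the higher ratio in cells without those UMIs. H2-Ob had opposite signs, 0.60 (0.22 to 0.99) without and -0.52 (-0.92 to -0.12) with the 1 UMI. T cell markers summed to 20.6 and 84.7 CPM in the immature class, and their part in these ratios was not tested.

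Arranging all immature and mature cells by Ighd alone, after bringing each to 2000 UMIs, removed the class border. Cells with no Ighd UMI (394 and 445) had H2-Aa at 1706 and 658 CPM, with intervals of 1616 to 1799 and 606 to 714. With 1 Ighd UMI (172 and 166 cells) they had 2265 and 2066, with 2 to 3 (111 and 149 cells) 3144 and 3654, and with 4 or more (31 and 63 cells) 3903 and 4532. H2-Aa was thus higher in the library labelled Irf4-/- in cells without Ighd and lower in those with 2 to 3. Ciita was at 81.2 and 25.8 without Ighd and at 290 and 214 with 4 or more, its last 2 intervals overlapping. H2-DMa, at 353 and 161 without Ighd, was at 464 and 446 with 2 to 3. With 4 or more it was at 339 (interval 210 to 518) and 556 (433 to 702). Cd74 was at 8657 and 6020 without Ighd, at 10550 and 11923 with 2 to 3 and at 10790 and 11825 with 4 or more.

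**Figure D3:**
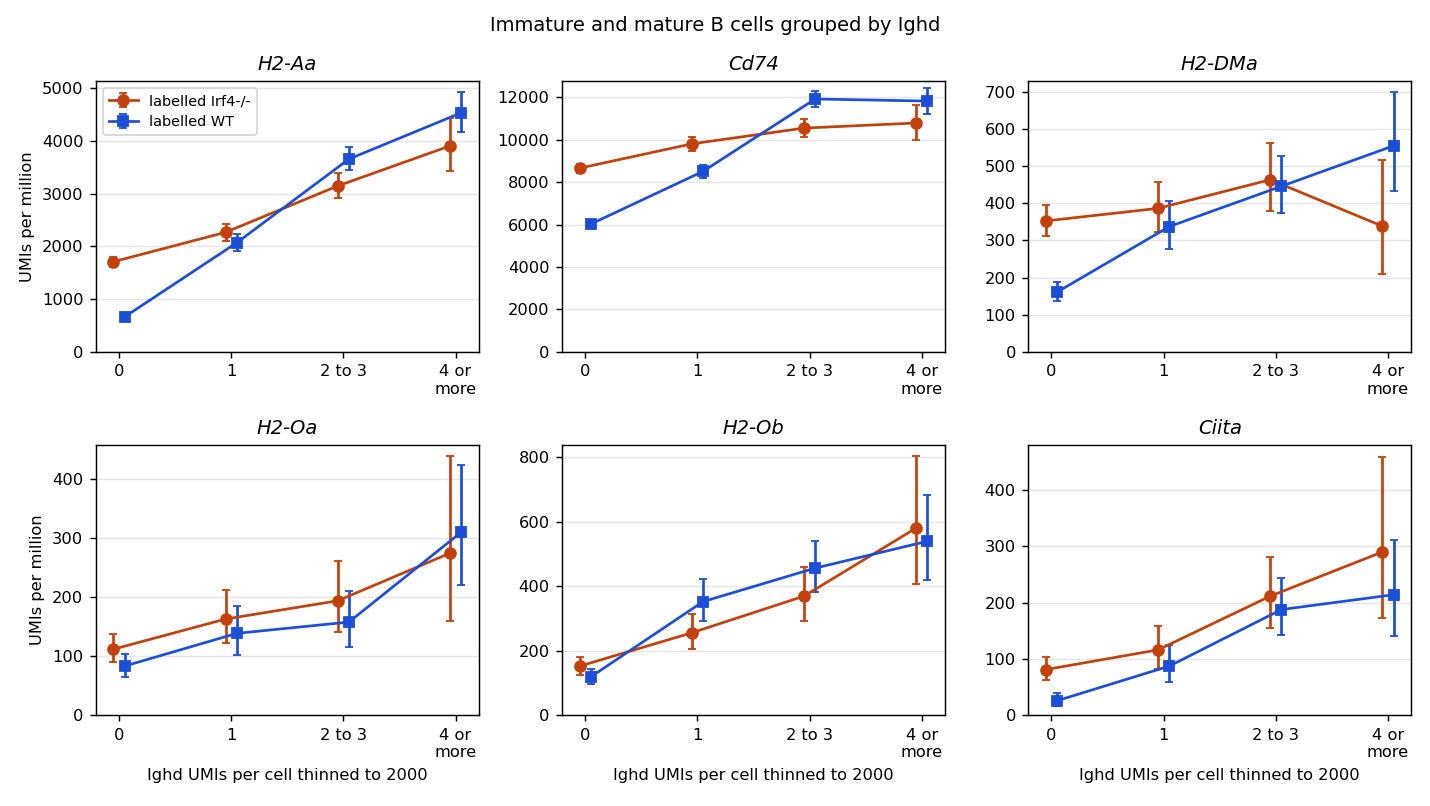
CPM of H2-Aa, Cd74, H2-DMa, H2-Oa, H2-Ob and Ciita (vertical axes, linear) in immature and mature B cells thinned to 2000 UMIs and grouped by their number of Ighd UMIs (horizontal axis), with exact Poisson 95% intervals. H2-Aa of the library labelled Irf4-/- lies above that of the library labelled WT in cells without Ighd (1706 against 658) and below it in cells with 2 to 3 Ighd UMIs (3144 against 3654), where H2-DMa, H2-Oa and Ciita do not lie below. In cells with 4 or more, H2-DMa (339 against 556) and H2-Oa (274 against 310) lie below with overlapping intervals, and Ciita does not lie below.

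Counted cell by cell at 2000 UMIs each, the libraries differed in how many immature cells had any chain transcript. H2-Aa was found in 298 of 377 immature cells of the library labelled Irf4-/- (79.0%, exact Clopper-Pearson interval 74.6% to 83.0%) and in 149 of 446 of the library labelled WT (33.4%, 29.0% to 38.0%). Before thinning the shares were 85.2% and 38.3%. T cells, which should lack it, had shares of 0.0898% and 0.173% at 2000 UMIs, and of 0.493% and 0.508% before thinning, at median depths of 9927 and 7279 UMIs. The median immature cell had 8 UMIs of the 3 chains together in the library labelled Irf4-/- and 0 in the library labelled WT. No chain UMI was seen in 12.2% and 52.7% of immature cells (6.51% and 49.2% before thinning). In mature cells the medians were 15 and 18, and 6.04% and 12.2% had none.

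Cd74 without a chain UMI was counted more often in immature cells of the library labelled WT. It was so in 173 of 446 of these (38.8%, interval 34.2% to 43.5%) and in 36 of 377 of the library labelled Irf4-/- (9.55%, 6.78% to 12.97%). Before thinning the shares were 5.47% in the library labelled Irf4-/- and 36.8% in the library labelled WT. In mature cells at 2000 UMIs they were 6.04% and 11.9%, in the same order. Over the whole immature class there were 52.5 chain UMIs for every 100 of Cd74 (51.1 to 54.0) against 30.2 (29.0 to 31.5), and in mature cells 72.0 and 73.4. The chains and Cd74 therefore stood in nearly the same proportion in mature cells of the libraries and in different proportions in immature cells.

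**Figure D4:**
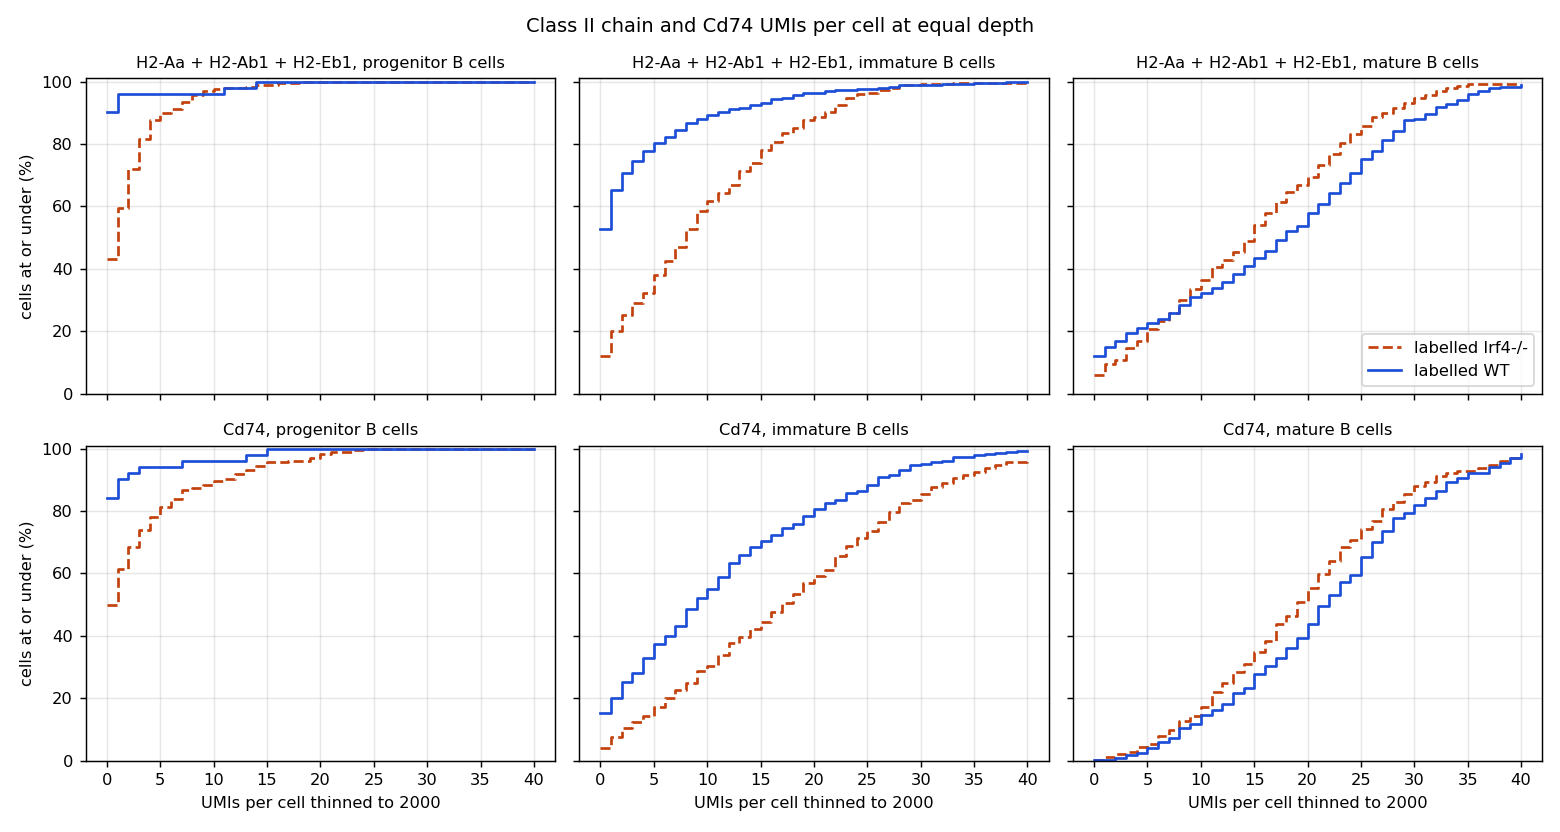
Cumulative percentage of cells (vertical axis) with at most the given number of UMIs of H2-Aa, H2-Ab1 and H2-Eb1 together, or of Cd74 (horizontal axes), after thinning to 2000 UMIs per cell; the axes end at 40 UMIs. The immature curve of the library labelled WT starts at 52.7% of cells without a chain UMI, and that of the library labelled Irf4-/- at 12.2%.

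H2-DMb1 and H2-DMb2 are near copies that encode alternative beta chains of H2-DM, and B cells and other cells used them differently. Their transcripts were 94.6% identical over the aligned length and 75.6% over the last 300 bases, where no run of 30 bases was shared. The sources used here do not say how reads that fit both were counted, which leaves their split uncertain. H2-DMb1 made up 12.6% (interval 10.1% to 15.4%) and 12.02% (9.27% to 15.2%) of the UMIs of the pair in mature B cells, and 12.2% and 12.9% in immature cells. In progenitors of the library labelled Irf4-/- it was 36 of 103 UMIs, or 34.95% (25.8% to 45.0%). Among barcodes with under 2 UMIs of Cd79a and under 2 of Cd3d it was 93.0% (40 against 3 UMIs) and 94.1% (32 against 2). Most of these UMIs came from 44 and 33 such cells with at least 5 UMIs of myeloid markers, where H2-DMb1 was at 45.3 and 74.6 CPM and H2-DMb2 at 3.99 and 0.

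T cells had almost none of the classical transcripts, but they had H2-DMa, H2-Oa and H2-Ob. H2-Aa was at 0.466 and 0.952 CPM, 0.0206% and 0.0341% of the mature B cell level, and Cd74 at 2.18 and 3.45, or 0.0252% and 0.0347%. The B cell gene Ms4a1, which the gates did not use, was at 0.0143% and 0.0202% of its mature level. Those of H2-Ab1, H2-Eb1 and H2-DMb2 were between 0.02598% and 0.0397% in both libraries. Ciita had 11 UMIs in each library's T cells, 0.112% and 0.0968%, and H2-DMb1 30 and 25 UMIs, 0.957% and 0.668%.

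H2-DMa stood apart in T cells at 20.2 (interval 19.2 to 21.3) and 20.9 (19.99 to 21.9) CPM, or 5.64% and 5.46% of the mature B cell level. H2-Oa was at 15.5 (14.6 to 16.4) and 18.2 (17.3 to 19.1), or 8.81% and 10.1%. H2-Ob was at 10.4 (9.64 to 11.1) and 14.3 (13.5 to 15.1), or 3.95% and 4.09%. For every UMI of Cd74, T cells held 9.28 and 6.07 UMIs of H2-DMa, where mature B cells held 0.0415 and 0.0386. At equal depth, 4.10% and 4.20% of T cells had a UMI of H2-DMa (19.1% and 14.6% before thinning), 2.66% and 3.27% one of H2-Oa (14.3% and 12.3%) and 2.21% and 2.91% one of H2-Ob (9.71% and 9.91%). For Cd74 the thinned shares were 0.359% and 0.463%.

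The same 3 genes were present in each group of T cells. In T cells with at least 2 UMIs of the CD8 gene Cd8b1, H2-DMa was at 17.4 and 20.4 CPM, in those with Trdc, the delta receptor constant gene, at 28.0 and 30.4, and in the rest at 20.8 and 19.3. H2-Oa ranged from 14.7 to 19.2 over these 6 sums and H2-Ob from 9.86 to 14.9. Between libraries, H2-Oa had a log2 ratio of -0.23 (interval -0.34 to -0.12) and H2-Ob of -0.47 (-0.60 to -0.34) over all T cells, both lower in the library labelled Irf4-/-. H2-DMa did not differ there beyond counting error (-0.05, -0.15 to 0.05). With Cd8b1, with Trdc and in the rest, H2-DMa was at -0.23 (-0.39 to -0.07), -0.12 (-0.40 to 0.16) and 0.11 (-0.05 to 0.27). In the same order H2-Oa was at -0.34 (-0.51 to -0.18), -0.28 (-0.65 to 0.08) and -0.08 (-0.26 to 0.10). H2-Ob was at -0.55 (-0.75 to -0.35), -0.05 (-0.50 to 0.41) and -0.49 (-0.69 to -0.28). Of the 10 genes only H2-Aa was at least 2-fold lower over all T cells (-1.03, -1.65 to -0.44), where 1.74% of all genes were. A few barcodes weighed on the classical genes in T cells. Those with at least 5 UMIs of H2-Aa, H2-Ab1, H2-Eb1 and Cd74 numbered 4 and 7 and held 13.8% and 40% of such UMIs. Cd74, at -0.67 over all T cells, was at 0.72 (0.22 to 1.25) in T cells with neither marker, -1.46 (-1.98 to -0.97) in those with Cd8b1 and -1.94 (-2.99 to -1.01) in those with Trdc. The Cd8b1 group held 39.3% and 60.2% of the T cell UMIs.

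**Figure D5:**
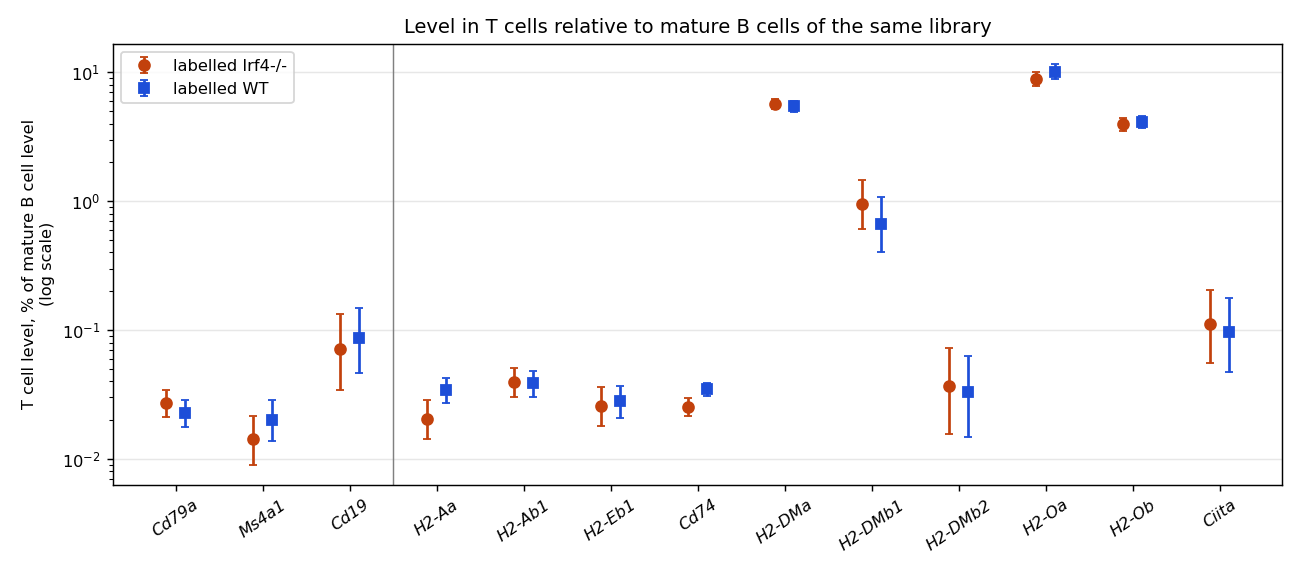
Level of each class II gene and of B cell genes in T cells as a percentage of the mature B cell level of the same library (log axis), with exact 95% intervals. H2-DMa, H2-Ob and H2-Oa stand between 3.95% and 10.1%, while the classical chains and Cd74 stand between 0.0206% and 0.0397%.

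Barcodes with both Cd79a and Cd3d held every one of the 10 genes at between 14.7% and 26.2% of the mature B cell level, and Cd79a at 30.6% and 32.7%. Their median depth was 14551 and 10621 UMIs, above that of either lineage. They entered none of the values above.

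Genes that serve the pathway did not all share its pattern. Of 7 factors that occupy class II promoters (Rfx5, Rfxap, Rfxank, Creb1, Nfya, Nfyb and Nfyc), none was 2-fold higher in mature than in progenitor B cells of either library, and the list medians were -0.53 and -0.35. Rfx5, the DNA-binding subunit of the RFX complex, was at a log2 ratio of 1.08 and 1.05 from progenitor to immature cells, the second with 5 UMIs in progenitors. Of 8 antigen-processing genes with at least 20 UMIs, 3 were at least 2-fold higher in mature than in progenitor cells in each library, where 8.35% and 14.4% of all genes were. These were Ctsh, an endosomal aminopeptidase (4.78 and 5.71), Ifi30, the thiol reductase that unfolds antigens (3.06 and 3.34), and Ctss, the protease that trims the invariant chain (2.75 and 2.96). Between libraries Ctsh was at -0.997 (interval -1.29 to -0.70) in immature cells, where all 10 class II genes were above 0. In mature cells it was at -1.003 (-1.22 to -0.78), where the median of the class II genes was -0.11.

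March1, a ubiquitin ligase that removes class II from the surface, was also counted less in the library labelled Irf4-/-. It had 161 and 305 UMIs in mature cells, a log2 ratio of -1.38 (interval -1.66 to -1.10), and -0.58 (-1.04 to -0.13) in immature cells. H2-Eb2, a second I-E beta-like gene of the locus, had 47 and 73 UMIs in mature cells, a log2 ratio of -1.09 (-1.65 to -0.54), and was 2.68 and 3.96 higher on the log2 scale in mature than in immature cells, which had 7 and 6 UMIs. Of the help genes, Cd40, the receptor for T cell help, was at 1.003 (0.66 to 1.36) between libraries in immature and 0.55 (0.17 to 0.94) in mature cells. Cd86, a ligand of CD28, was at -1.62 (-2.75 to -0.60) in immature cells, with 11 and 33 UMIs. Among B cell transcription factors Irf8 was higher in the library labelled Irf4-/- by 0.77 in progenitor, 0.77 in immature and 0.40 in mature cells on the log2 scale, and by 0.69 in T cells.

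The genes most like the classical set over the 8 sums of class and library were Swap70, Bcar3, Ckap4, Pou2f2, Scd1, Bank1, Prkcd and Cd180. Pearson's r ran from 0.993 to 0.983 among 12552 genes, on log2 of CPM plus 10, against the mean of H2-Aa, H2-Ab1, H2-Eb1 and Cd74. The 8 sums share libraries and a large step between B and T cells, so r serves only to rank. Swap70, first in that order, was at 166, 618 and 669.6 CPM from progenitor to mature cells of the library labelled Irf4-/- and at 93.4, 485 and 656 in the library labelled WT. Among the 10 genes H2-Oa had the lowest r, 0.877, and H2-DMa 0.938.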

How the data were processed

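Sorted bone marrow cells of 2 mouse genotypes were measured by droplet single-cell RNA sequencing, 1 library each. Cells were sorted, yet the labels' protocols describe loading nuclei. The authors deposited unnormalized UMI counts for each barcode and gene, for which the software was Cell Ranger 6.1.1, per the file headers, on mm10 per the submitters' processing notes. Which annotation release they used is not stated.

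Barcodes with at least 500 genes, at least 1000 UMIs and under 10% mitochondrial UMIs were kept. B, T and mixed barcodes were separated at 2 UMIs of Cd79a and Cd3d, allowing at most 1 UMI of the other. B cells were split by progenitor genes first, mature genes next and Ighm last, at 2 UMIs each. No doublet caller was run. Counts were summed per class and library and divided by the class total. Level intervals are exact Poisson, shares exact Clopper-Pearson and ratios exact conditional binomial, all at 95%. Ratios against 0 UMIs used a floor of 3 counts. A 2-fold difference counted with at least 20 UMIs in the pair of sums. Shares per cell used cells thinned at random to 2000 UMIs, leaving out between 2 and 19 shallower cells per class and library. The labels name no batch.

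All 10 genes were named. From each related list up to 4 genes with the largest ratio and at least 20 UMIs could be named, and for likeness the 8 highest correlations among genes with at least 50 UMIs. The gene set and lists were chosen with earlier results of these data known. The subdivisions of classes by Ighd, Ms4a1, surrogate light chain, division, receptor and myeloid genes were chosen after seeing the data. The ratio calculation was tested on simulated data. For alternatives, 9 were planned and 4 were chosen after seeing the data. Python 3.11.15, numpy 2.4.6, scipy 1.17.1, pandas 2.3.3 and matplotlib 3.10.9 were used. Gene positions came from GENCODE on GRCm38, and promoter sequences from RefSeq.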

Additional observations from a re-analysis of the deposited data

Results flagged for a closer look

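In 5 of the genes the ratio between libraries had opposite signs in different cell classes, with intervals that did not reach 0. The difference between classes was not tested, since each class has 1 library per genotype. H2-Aa had a log2 ratio, library labelled Irf4-/- over WT, of 2.14 in progenitor and 1.39 in immature B cells, and of -0.30 in mature B cells and -1.03 in T cells. H2-Ab1 was at 1.80 and 1.37 in progenitor and immature cells and at -0.12 in mature cells. H2-Eb1 was at 2.71 and 1.36 against -0.27 in mature cells. Cd74 was at 2.45 and 0.58 against -0.20 in mature B cells and -0.67 in T cells. Within T cells Cd74 was not of 1 sign, at 0.72 (interval 0.22 to 1.25) in those with neither Cd8b1 nor Trdc, -1.46 (-1.98 to -0.97) in those with Cd8b1 and -1.94 (-2.99 to -1.01) in those with Trdc, and these groups held 50.8% and 31.1%, 39.3% and 60.2%, and 9.94% and 8.65% of the T cell UMIs of the libraries. H2-Aa was below 0 in each of the 3 groups, with an interval that reached 0 in cells with Trdc (-1.43, -3.26 to 0.12). H2-Oa was at 0.39 in immature B cells and -0.23 in T cells. Among the 3 T cell groups its interval left out 0 only in cells with Cd8b1 (-0.34, -0.51 to -0.18).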

How the results depend on the processing

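Each ratio of the 10 genes and each median was recomputed under 9 planned and 4 added alternatives, which gave 1062 values. The sign was kept in 1041. Values moved beyond the counting error in 137, and in 3 a ratio whose interval left out 0 changed sign. All 3 came from gating the progenitor and mature genes at 1 UMI: the library ratio of H2-Ab1 in mature B cells was 0.13, and the ratios of mature over immature cells in the library labelled Irf4-/- were -0.0067 for Cd74 and -0.13 for H2-DMa. The median of mature over progenitor cells in the library labelled WT, 4.49, was 3.43 under that gate and 3.60 when cells were gated after thinning. The cause was not tested. Other medians between libraries, taken over all 10 genes, ranged from 0.71 to 2.49 in progenitor and 0.70 to 1.14 in immature B cells. They ranged from -0.14 to -0.01 in mature B cells and -0.34 to -0.01 in T cells. The alternative restricted to H2-Aa, H2-Ab1, H2-Eb1 and Cd74 is not in these ranges. Its medians were 2.29, 1.37, -0.24 and -0.52 in the same order of classes. Gated after thinning, Ciita in progenitors (9 and 0 UMIs) and H2-DMb1 in T cells (2 and 3) gave no value. No paired analysis was possible because each genotype has 1 library and no test was made, and for the same reason no replicate could be left out. At the depth of the 54 progenitors of the library labelled WT, H2-DMb1, H2-DMb2, H2-DMa, H2-Oa and Ciita each had at most 6 UMIs.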

Other observations

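Progenitor B cells with and without Ms4a1, which encodes CD20 and appears as B cells mature, differed in class II in both libraries. Cd74 was at 469 (interval 438 to 502) and 66.3 (39.9 to 103) CPM in the 238 and 44 progenitors with no Ms4a1 UMI, and at 4203 (3981 to 4435) and 804 (587 to 1076) in the 79 and 10 progenitors with at least 1. H2-DMa was at 36.8 and 6.97 without and at 176 and 71.5 with it, the WT values resting on 2 and 4 UMIs. H2-Ob differed less between these cells, at 74.8 and 41.8 without and 113 and 125 with a Ms4a1 UMI.

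The barcodes with under 2 UMIs of Cd79a and under 2 of Cd3d included 3 and 7 with at least 2 UMIs of Siglech, a marker of plasmacytoid dendritic cells. Their Cd74 was at 384 (interval 191 to 686) and 1142 (855 to 1493) CPM. Their H2-DMa was at 69.7 and 539, resting on 2 and 25 UMIs. The 44 and 33 barcodes with myeloid markers had Cd74 at 70.6 and 84.9 and H2-DMa at 148 and 242.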
